A study of Homo sapiens with 12 samples.

Results

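The nuclear genes of oxidative phosphorylation were followed in VCaP cells, a human prostate cancer line from a vertebral bone metastasis. Members were taken by symbol (those starting with NDUFA, NDUFB, NDUFC, NDUFS, NDUFV, SDHA to SDHD, UQCR, COX4 to COX8 or ATP5), without pseudogenes, and a gene had to be detected (detection p under 0.01) on at least 3 of the 12 arrays. Of 94 such genes with a probe, 85 were detected, among 10710 detected genes in all. They comprised 33 subunits of complex I, 3 of complex II, 8 of complex III, 11 of complex IV and 17 of complex V, 72 subunits in all, and 13 genes that the same prefixes bring in but that encode assembly or regulatory proteins (NDUFAF, SDHAF and ATP5IF1).

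The study crossed an siRNA pool against PIAS1, a SUMO ligase and transcriptional coregulator, with testosterone. The 4 groups held 3 arrays each: siPIAS1 cells with 100 nM testosterone for 16 h, siPIAS1 cells without testosterone, cells with the control pool (siSCR) with the same testosterone, and siSCR cells without it. All cells had carried their siRNA for 96 h and stood in medium with 2.5% charcoal-stripped serum, which is depleted of steroids, for 100 h. The samples are 1 cell line and 1 siRNA pool per target; the labels number the replicates and do not say whether they were separate cultures, so p-values measure only the spread between these arrays.

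Oxidative phosphorylation is carried out by protein complexes of the inner mitochondrial membrane. Complex I takes electrons from NADH, complex II from succinate, complex III passes them from ubiquinol to cytochrome c and complex IV on to oxygen, and complexes I, III and IV pump protons, which drive ATP synthesis by complex V. A few subunits of every complex except complex II are encoded in mitochondrial DNA; no probe for any of those 13 genes was listed, so all values below concern nuclear transcripts. Prostate epithelium is known for an unusual mitochondrial metabolism, with citrate secreted in the normal gland and more of it oxidised in cancer.

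PIAS1 itself, as a check of the labels, averaged 10.65 ± 0.16 in siPIAS1 cells with testosterone, 9.11 ± 0.13 in siPIAS1 cells without it, 11.41 ± 0.08 in siSCR cells with testosterone and 10.31 ± 0.06 in siSCR cells without it (normalized log2 signal, mean ± SD, n = 3). That is 1.7-fold lower after siPIAS1 with testosterone and 2.31-fold lower without it (limma adjusted p 0.00015 and 9e-06). FKBP5, KLK3 and TMPRSS2, known androgen-induced genes, were higher with testosterone after both siRNAs. Of 11 luminal prostate and VCaP markers examined, 9 had a listed probe, and all 9 were detected (KLK2, KLK3, TMPRSS2, ERG, HOXB13, KRT8, KRT18, KRT19 and FOXA1). Of 3 basal markers 2 had a listed probe and 0 were detected. Of 3 endothelial markers, all with a probe, 0 were detected. Among fibroblast and blood markers COL1A1, COL1A2, DCN, PTPRC and CD3D were not detected, ACTA2 and CD14 were detected on all 12 arrays, LUM on the 6 arrays without testosterone and LYZ on the 3 arrays of siPIAS1 cells with testosterone; their part in the results was not tested. LYZ averaged 8.99 ± 0.08 in siPIAS1 cells with testosterone, against 5.31 ± 0.08 in siSCR cells with testosterone, and LUM 4.87 ± 0.18 against 4.91 ± 0.11. On each array 32.5% to 36.0% of probes were detected. One array stood apart: the genes of siPIAS1 cells with testosterone, replicate 3, deviated from their group means with an SD of 0.415 (log2), against 0.153 to 0.263 on the other 11 arrays, and the members did so with an SD of 0.407, against 0.113 to 0.23. Called values that it moved by over 1.5 times, and calls lost without it, are given beside the results.

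All levels are relative, since the arrays were set to a common signal distribution: fewer cells and less RNA per cell cannot be told apart and neither would show. Of the 85 members, 82 were detected on all 12 arrays. The exceptions were NDUFB4 on 7 arrays, NDUFV3 on 11 and ATP5MK on 3. Not detected were NDUFA5 and NDUFS6 (0 arrays), NDUFC2 (2 arrays) and, on 0 arrays, the COX4I2, COX6A2, COX6B2, COX7A1, COX7B2 and COX8C isoforms of complex IV, which are known from lung, heart, skeletal muscle or testis. Their widely expressed counterparts COX4I1, COX6A1, COX6B1, COX7A2, COX7B and COX8A were all detected on 12 arrays. NDUFA4, a complex IV subunit now named COXFA4, falls outside the symbol rule; it was detected and passed the test in none of the comparisons, with log2 differences from -0.16 to 0.13.

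**Figure D1:**
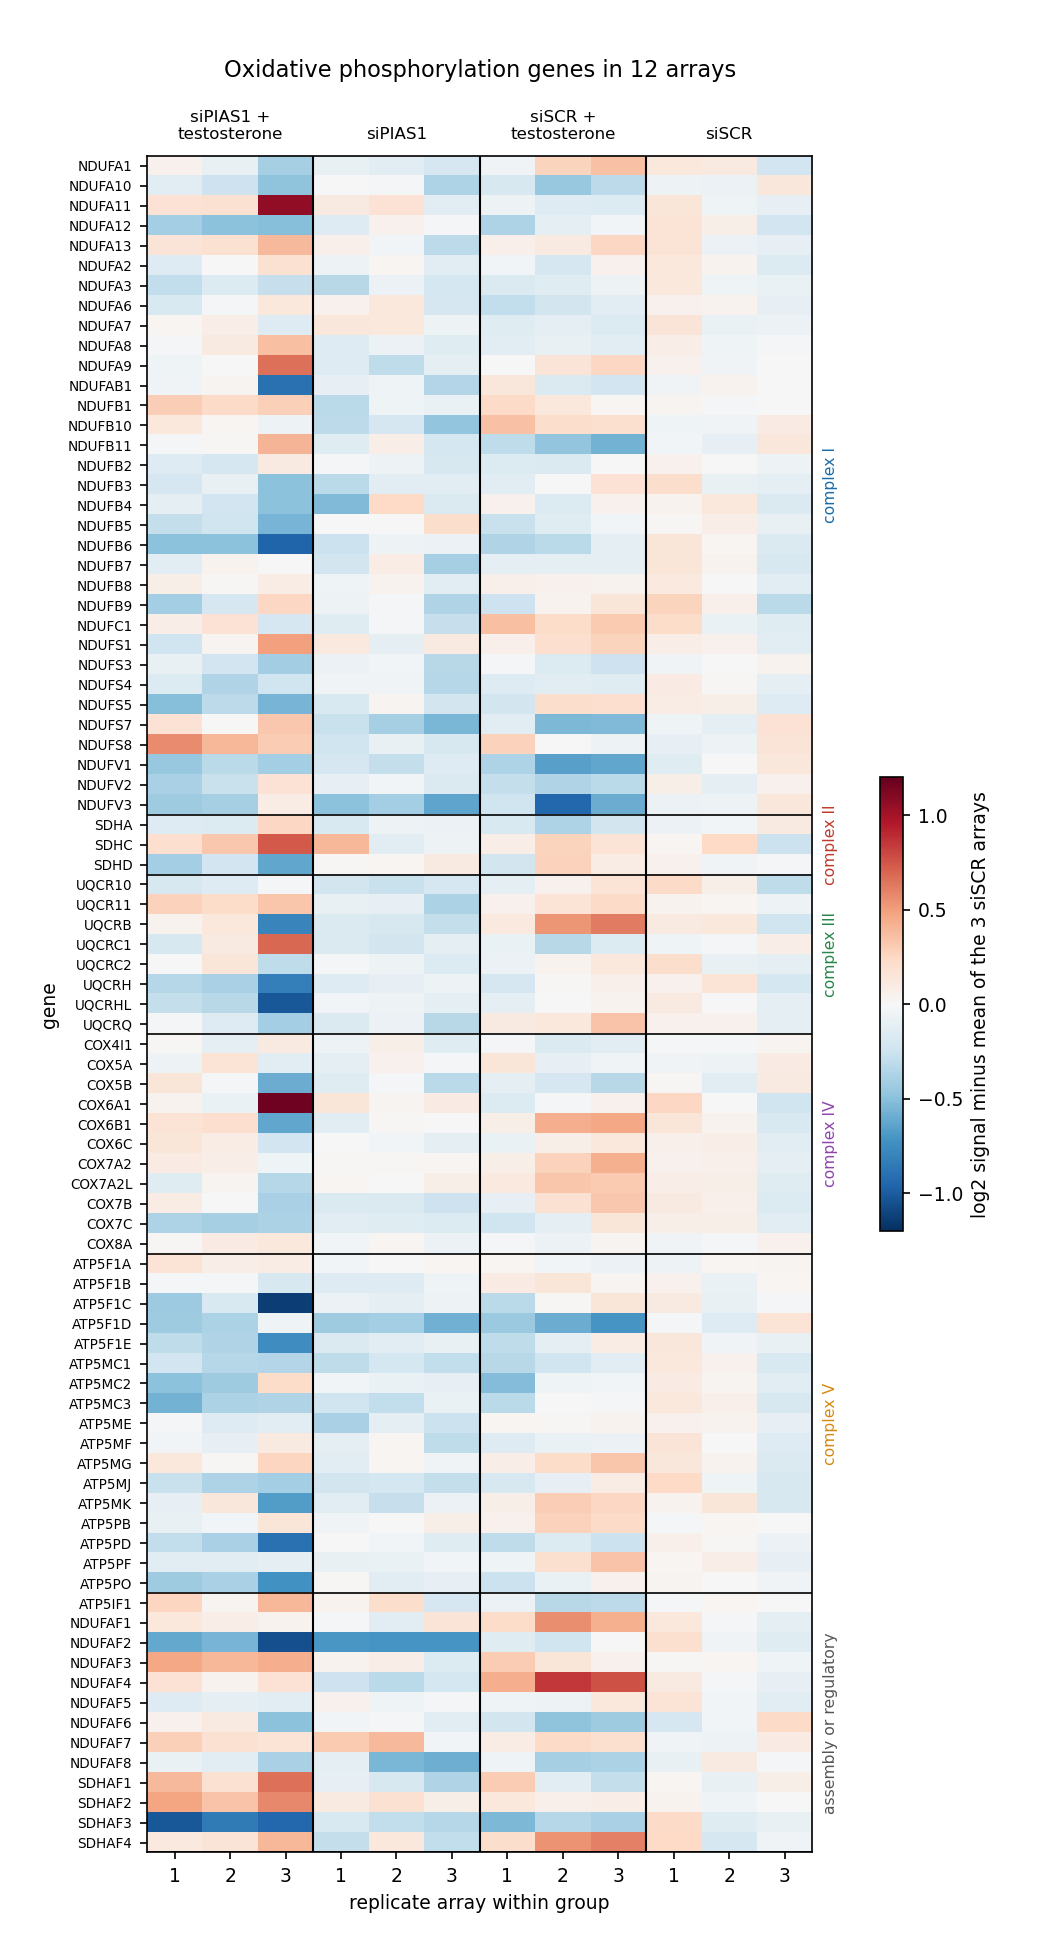
Normalized log2 signal of the 85 members on each of the 12 arrays, minus the mean of the 3 siSCR arrays without testosterone; rows are genes grouped by complex, columns are arrays grouped by treatment, red is higher and blue lower. The third array of siPIAS1 cells with testosterone carries the most saturated colours, and NDUFAF2 is blue on all 6 siPIAS1 arrays.

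Promoters of these genes are known for sites of NRF1, of the ETS factor GABP (also called NRF2) and of YY1. The RefSeq table of promoters (GRCh38.p14; 250 bases before to 50 after the start) held 73 of the 85 members. The letters searched, on both strands, were GCGCNTGCG for the NRF1 core, CCGGAAG for ETS factors and AANATGGC for YY1. The NRF1 core was found in 31.5% of member promoters and 8.05% of all 27305 promoters, the ETS letters in 30.1% and 10.7%, and the YY1 letters in 27.4% and 6.82%. Over the 15843 promoters of protein-coding genes the shares were 11% for the NRF1 core, 14.2% for ETS and 7.92% for YY1. At least 1 of the 3 stood in 61.6% of member promoters, against 28.2% of those of protein-coding genes and 22.1% of all. A match is a description of these letters and not a site, and binding was not measured. Matches are in capitals. NDUFS7 (NRF1 core on the minus strand and YY1) was the member with the largest difference between the testosterone responses. SDHD (overlapping NRF1 matches on both strands and ETS on the minus strand), UQCRH (ETS on the minus strand) and ATP5PO (NRF1 core at 2 places and YY1) were lower in siPIAS1 cells with testosterone. COX8A (ETS and YY1, both on the minus strand) did not pass the test in any comparison of the main fit. The authors' deposited values called COX8A for testosterone after siPIAS1 and for siPIAS1 with testosterone. NDUFAF2, lower after siPIAS1 with and without testosterone, has none of the 3.
NDUFS7, chr19:1383657-1383956 (+ strand): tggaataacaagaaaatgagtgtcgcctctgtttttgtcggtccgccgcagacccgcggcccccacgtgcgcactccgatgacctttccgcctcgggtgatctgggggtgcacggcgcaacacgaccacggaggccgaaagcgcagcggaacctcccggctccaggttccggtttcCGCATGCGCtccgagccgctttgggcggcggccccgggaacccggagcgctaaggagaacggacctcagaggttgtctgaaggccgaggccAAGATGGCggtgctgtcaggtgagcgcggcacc
SDHD, chr11:112086623-112086922 (+ strand): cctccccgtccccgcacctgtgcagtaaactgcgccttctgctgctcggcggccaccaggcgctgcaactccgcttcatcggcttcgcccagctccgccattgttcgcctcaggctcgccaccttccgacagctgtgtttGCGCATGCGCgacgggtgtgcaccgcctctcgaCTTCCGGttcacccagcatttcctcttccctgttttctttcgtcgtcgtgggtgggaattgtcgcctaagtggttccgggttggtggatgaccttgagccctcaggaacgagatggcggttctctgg
UQCRH, chr1:46303448-46303747 (+ strand): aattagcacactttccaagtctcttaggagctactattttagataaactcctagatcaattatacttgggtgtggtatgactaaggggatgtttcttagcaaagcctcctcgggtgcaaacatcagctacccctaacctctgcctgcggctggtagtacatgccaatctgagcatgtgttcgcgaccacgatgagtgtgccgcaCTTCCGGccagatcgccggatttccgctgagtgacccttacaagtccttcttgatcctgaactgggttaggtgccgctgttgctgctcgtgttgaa
ATP5PO, chr21:33915755-33916054 (- strand): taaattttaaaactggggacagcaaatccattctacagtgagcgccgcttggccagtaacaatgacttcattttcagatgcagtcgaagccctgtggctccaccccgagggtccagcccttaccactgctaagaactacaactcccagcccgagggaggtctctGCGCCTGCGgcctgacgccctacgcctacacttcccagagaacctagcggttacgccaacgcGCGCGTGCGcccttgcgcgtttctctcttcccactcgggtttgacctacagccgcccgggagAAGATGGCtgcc
COX8A, chr11:63974370-63974669 (+ strand): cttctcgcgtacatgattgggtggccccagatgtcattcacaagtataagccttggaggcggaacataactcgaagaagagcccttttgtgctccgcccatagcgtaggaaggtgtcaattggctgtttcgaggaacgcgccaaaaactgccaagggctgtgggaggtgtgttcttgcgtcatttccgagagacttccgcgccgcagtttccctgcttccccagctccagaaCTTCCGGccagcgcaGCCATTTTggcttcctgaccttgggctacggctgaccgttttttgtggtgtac
NDUFAF2, chr5:60944955-60945254 (+ strand): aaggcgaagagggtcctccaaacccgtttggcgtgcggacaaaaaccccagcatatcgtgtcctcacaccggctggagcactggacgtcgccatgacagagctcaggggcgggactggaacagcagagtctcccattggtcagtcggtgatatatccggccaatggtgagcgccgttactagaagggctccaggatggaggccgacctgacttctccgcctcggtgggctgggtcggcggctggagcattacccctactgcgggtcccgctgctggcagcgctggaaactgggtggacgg

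The first comparison asked what testosterone does to these transcripts in control cells. Few members changed: 3 of 85 were higher and 6 lower in siSCR cells with testosterone than without (10.6%), while 44.3% of all genes passed the same test, 20% higher and 24.3% lower (limma, Benjamini-Hochberg adjusted p under 0.05). The median log2 difference of the members was -0.03, as against -0.02 over all genes, and the 95% interval of every member lay inside 1 log2 unit on either side of 0. Under scaling of each array to its 75th percentile the split was 7 higher and 5 lower, so which direction prevails depends on the scaling. Without replicate 3 of siPIAS1 cells with testosterone, which is in neither group but in the shared fit, 9 were higher and 12 lower, beside 53.8% of all genes.

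In complex I, 4 subunits fell and none rose in the main fit. NDUFV1, the subunit that binds NADH and FMN, had 12.28, 11.997 and 12.02 in siSCR cells with testosterone and 12.50, 12.65 and 12.79 without. The groups did not overlap, and the log2 difference was -0.55 ± 0.11 (SE; adjusted p = 0.000777). NDUFV3, an accessory subunit beside it, had 6.89, 6.19 and 6.53 with testosterone, where it was detected on 2 of 3 arrays, and 7.05, 7.06 and 7.26 without (-0.59 ± 0.17, adjusted p = 0.0112). NDUFB11, an accessory subunit of the membrane arm, was lower by a factor of 1.36, and NDUFS7, a core subunit that carries the iron-sulphur cluster next to ubiquinone, by a factor of 1.32. The NDUFS7 call was lost under 75th percentile scaling (adjusted p = 0.0943). Of complex V, only ATP5F1D, the delta subunit of the central stalk, passed the test, with 12.61, 12.46 and 12.35 in siSCR cells with testosterone and 13.04, 12.90 and 13.22 without, a fall to values that all lay below those of untreated cells (-0.58 ± 0.12, adjusted p = 0.00148). No subunit of complexes II, III or IV did, where 1 of 3, 0 of 8 and 2 of 11 had an unadjusted p under 0.05. That absence did not hold in every alternative. Without replicate 3 of siPIAS1 cells with testosterone COX6B1, COX7A2, COX7A2L and UQCRB were called higher and SDHA lower. COX7A2L was also called higher under 75th percentile scaling. COX7A2 was called without background correction, with an offset of 50 and without replicate 1 of siSCR cells with testosterone. The authors' deposited values gave calls to COX7A2, COX7A2L and SDHA, and a fit of only the groups compared to SDHA and UQCRB. For UQCRB the direction is that of its brightest probe. Another of its detected probes differed by over 0.2 log2 units in the opposite direction.

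The 3 members that rose in the main fit were assembly factors. Subunits were called higher in alternatives, beside the complex III and IV subunits just named. NDUFB10 and NDUFC1 were so without replicate 3 of siPIAS1 cells with testosterone. With all 12 arrays they were so without background correction, under 75th percentile scaling, in the authors' deposited values and with array weights. ATP5PB was called higher in the last 3 of these. NDUFAF4, which acts early in complex I assembly, had 8.69, 9.10 and 9.01 with testosterone and 8.36, 8.24 and 8.15 without, groups well apart (0.68 ± 0.11, adjusted p = 0.000201). NDUFAF1, another complex I factor, and SDHAF4, which binds SDHA on its way into complex II, were 1.32-fold and 1.37-fold higher. SDHAF3, which helps to mature the iron-sulphur subunit of complex II, was lower by 1.34-fold (adjusted p = 0.00702). The calls of ATP5F1D, NDUFAF4, NDUFV1 and SDHAF3 held in every alternative, and the other 5 were lost without some single array: NDUFAF1, NDUFS7, NDUFV3 and SDHAF4 without replicate 2 of siSCR cells with testosterone (5 members called), NDUFB11, NDUFS7 and SDHAF4 without replicate 3 of that group (6 called) or replicate 3 of siSCR cells without testosterone (7 called), and SDHAF4 without replicate 2 of siSCR cells without testosterone (8 called).

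**Figure D2:**
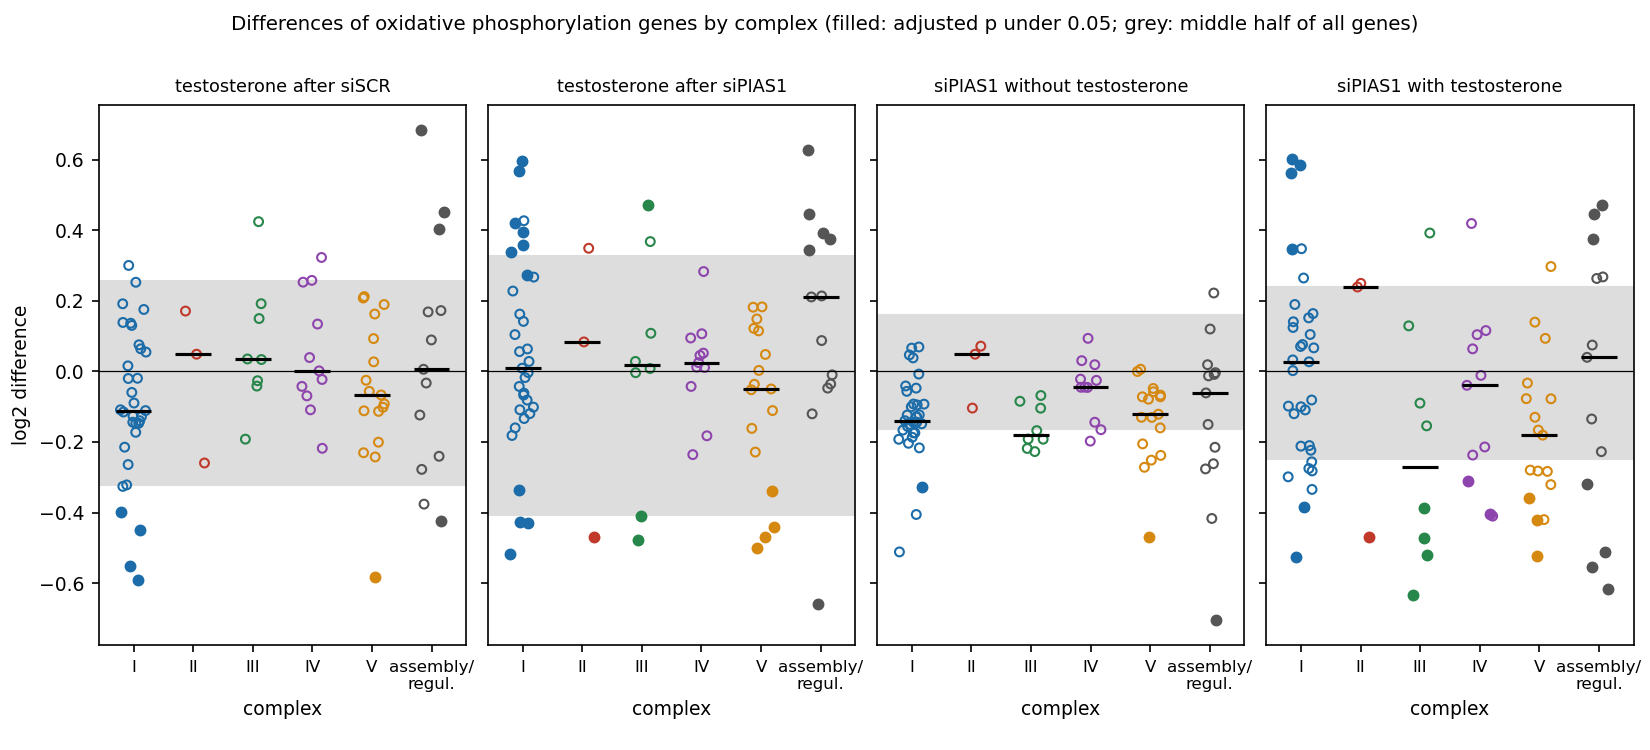
Log2 difference of each member (points) in 4 comparisons, by complex; filled points have a limma adjusted p under 0.05, the short line is the class median, and the grey band is the middle range of all 10710 genes from the first to the third quartile. No complex IV subunit is filled in either testosterone comparison. Complex III holds 4 filled points below 0 for siPIAS1 with testosterone, among them the near-identical UQCRH and UQCRHL.

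The same question was asked after PIAS1 knockdown. In siPIAS1 cells 13 members were higher and 12 lower with testosterone than without (29.4%), beside 55.1% of all genes, 25.4% higher and 29.7% lower, and the median was 0.01, against -0.03 over all genes. The balance of directions depended on the scaling, since 75th percentile scaling gave 18 higher and 1 lower and moved the members' median to 0.12 and that of all genes to 0.03. Under it all 11 subunits called lower kept their sign and lost their call (adjusted p 0.0581 to 0.365), so the falls below are relative to the array's signal distribution. Without replicate 3 of the siPIAS1 cells with testosterone, 9 members were higher and 9 lower, and 17 of the 25 calls were kept.

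The largest rises in complex I were those of NDUFS8 and NDUFS7, core proteins of the matrix arm. NDUFV1, NDUFV2, NDUFS1 and NDUFS3, also core proteins of that arm, were not called. Their means were 12.25, 12.71, 8.18 and 11.47 with testosterone and 12.43, 12.77, 8.12 and 11.57 without. NDUFS8, which carries iron-sulphur clusters, had 14.61, 14.44 and 14.35 in siPIAS1 cells with testosterone and 13.81, 13.95 and 13.85 without. All 3 treated values lay above the untreated ones (0.59 ± 0.12, 1.51-fold, adjusted p = 0.000682). NDUFS7 had 11.28, 11.10 and 11.43 with testosterone and 10.84, 10.71 and 10.56 without, again apart (0.57 ± 0.14, adjusted p = 0.00278). The accessory subunits NDUFB1 (0.42 ± 0.10), NDUFA9 (0.39 ± 0.15), NDUFB10 (0.36 ± 0.10), NDUFA13 (0.34 ± 0.12) and NDUFA8 (0.27 ± 0.10) were higher too. The call of NDUFA9 rested on the array that stood apart: with values of 11.03, 11.09 and 11.74 in siPIAS1 cells with testosterone, its log2 difference was 0.17 without the third. NDUFA8 (0.17), NDUFA13 (0.27) and, among those that fell, NDUFS5 (-0.29) also lost their calls without it. The 4 subunits that fell were NDUFB6 (-0.52 ± 0.14), NDUFA12 (-0.43 ± 0.12), NDUFB5 (-0.43 ± 0.11) and NDUFS5 (-0.34 ± 0.13). They are accessory, like most of the complex I members. NDUFB6 had 10.49, 10.48 and 10.02 with testosterone and 10.71, 10.92 and 10.91 without, with no overlap (adjusted p = 0.00569).

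Complex II was split. SDHD, a membrane anchor, fell to 9.85, 10.03 and 9.64 in siPIAS1 cells with testosterone, against 10.27, 10.29 and 10.37 without (-0.47 ± 0.13, adjusted p = 0.00708). The catalytic flavoprotein SDHA had 0.08 ± 0.12 and the other anchor, SDHC, 0.35 ± 0.17, and neither passed the test in the main fit. SDHC was called higher under 75th percentile scaling and without replicate 1 of either siPIAS1 group. A dimmer SDHC probe had the opposite sign (-0.23).

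In complex III the small subunit UQCR11 rose and the hinge protein UQCRH fell. UQCR11 had 8.57, 8.504 and 8.62 with testosterone and 8.20, 8.18 and 7.90 without (0.47 ± 0.10, adjusted p = 0.00143). UQCRH had 13.60, 13.56 and 13.12 with testosterone and 13.78, 13.85 and 13.88 without, the third treated array being the lowest (-0.41 ± 0.14, adjusted p = 0.0209). UQCRHL (-0.48 ± 0.16) is a near-identical copy of UQCRH, so their signals cannot be assigned with certainty. Without the third treated array UQCRH was at -0.26 (call lost) and UQCRHL at -0.24 (call kept). The core proteins UQCRC1 (0.37 ± 0.17, and 0.12 without that array) and UQCRC2 (0.03 ± 0.13) did not pass in the main fit. UQCRC1 was called higher under 75th percentile scaling and without replicate 1 of siPIAS1 cells with testosterone.

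Complex V subunits that passed the test all fell. ATP5PO, the oligomycin sensitivity protein of the peripheral stalk, had 12.99, 13.02 and 12.69 in siPIAS1 cells with testosterone and 13.43, 13.28 and 13.32 without, clearly apart (-0.44 ± 0.11, adjusted p = 0.00443). ATP5PD, also of the peripheral stalk, differed by -0.47 ± 0.13, and ATP5F1C and ATP5F1E, the gamma and epsilon subunits of the central stalk, by -0.50 ± 0.19 and -0.34 ± 0.13. The third treated array, at 10.16 against 10.86 and 11.11 in the other replicates, carried much of the fall of ATP5F1C, which was at -0.23 without it (log2; call lost). ATP5F1E was then at -0.20 (call lost) and ATP5PD at -0.28 (call kept). ATP5MC2, not called with that array in the main fit, was called lower without it (-0.39, limma adjusted p = 0.0237). The catalytic subunits ATP5F1A (0.11 ± 0.08) and ATP5F1B (0.05 ± 0.09) did not pass. No complex IV subunit did either: 1 of 11 had an unadjusted p under 0.05, and the 95% interval of 10 of 11 lay inside 0.5 log2 units of 0. Among the alternatives, COX7C was called without background correction and COX8A in the authors' deposited values. COX5A, whose 2 testosterone differences were among the smallest of all members, had 13.52, 13.74 and 13.45 in siPIAS1 cells with testosterone, 13.47, 13.63 and 13.56 in siPIAS1 cells without, 13.72, 13.48 and 13.53 in siSCR cells with testosterone and 13.54, 13.52 and 13.68 in siSCR cells without. These 12 values overlap throughout, and the interval of its testosterone difference ran from -0.22 to 0.24 after siPIAS1 and from -0.23 to 0.23 after siSCR. The other widely expressed isoforms did not pass the test with testosterone after siPIAS1 either, with COX4I1 at 0.05 ± 0.10, COX5B at 0.01 ± 0.16, COX6A1 at 0.28 ± 0.24, COX6B1 at -0.04 ± 0.19, COX7A2 at 0.02 ± 0.10, COX7B at 0.09 ± 0.14 and COX8A at 0.11 ± 0.09. COX6A1 read 13.83 on the third array of siPIAS1 cells with testosterone, against 12.70 and 12.58 on the other replicates.

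Of the 13 assembly or regulatory genes 5 were higher and 1 lower. SDHAF1, a partner of SDHAF3 in maturing the iron-sulphur subunit of complex II, had 10.04, 9.84 and 10.32 with testosterone and 9.56, 9.47 and 9.29 without (0.63 ± 0.15, adjusted p = 0.00324). SDHAF3 went the other way, with 8.73, 8.89 and 8.80 with testosterone and 9.56, 9.44 and 9.40 without, the largest fall among the members in this comparison (-0.66 ± 0.11, adjusted p = 0.000219). NDUFAF3, NDUFAF4, SDHAF4 and SDHAF2, which attaches the flavin to SDHA, were 1.36-, 1.31-, 1.3- and 1.27-fold higher; SDHAF4 lost its call without the deviating array. Of the 25 calls 16 held without each single array. The 9 lost were ATP5F1C, ATP5F1E, NDUFA13, NDUFA8, NDUFA9, NDUFS5, SDHAF4, UQCRH and UQCRHL, at adjusted p of at most 0.164; the number called ran from 18 without replicate 3 of either siPIAS1 group to 26 without replicate 1 of siPIAS1 cells with testosterone.

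The effect of PIAS1 knockdown without testosterone was small on these genes. None of the 85 members was higher and 3 were lower in siPIAS1 than in siSCR cells (3.53%, beside 13.3% of all genes, 7.56% higher and 5.77% lower). At an unadjusted p under 0.05 there were 10 members. NDUFAF2, a late assembly factor of complex I, had 9.29, 9.28 and 9.28 in siPIAS1 cells and 10.18, 9.94 and 9.84 in siSCR cells, far apart (-0.71 ± 0.13, 1.63-fold, adjusted p = 0.00357). ATP5F1D had 12.63, 12.65 and 12.48 in siPIAS1 cells and 13.04, 12.90 and 13.22 in siSCR cells, without overlap (-0.47 ± 0.12, adjusted p = 0.023), and NDUFB10 was 1.26-fold lower (adjusted p = 0.0476). NDUFAF2 held without each single array; 1 member was called without replicate 1 or 3 of siSCR or replicate 2 or 3 of siPIAS1 cells (none of these with testosterone), where ATP5F1D and NDUFB10 were lost. Both were also lost without replicate 1 of siPIAS1 cells without testosterone (2 called). There were 5 without replicate 1 of siSCR cells with testosterone and 6 without replicate 3 of siPIAS1 cells with testosterone. The replicate block, with 2 lower, lost NDUFB10.

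Most members lay slightly below their siSCR level: 72 of 85 differences were negative, with a median of -0.12, while over all genes 5444 of 10710 were negative and the median was -0.004. By complex the medians were -0.14 for I, 0.05 for II, -0.18 for III, -0.05 for IV and -0.12 for V. The shift was of the size of the spread between arrays. The median deviation of the 72 subunits from their siSCR mean was -0.12, -0.06 and -0.14 on the siPIAS1 arrays, against 0.06, 0.01 and -0.10 on the siSCR arrays, which overlap. All 8 complex III subunits were lower, by 0.07 to 0.23 on the log2 scale, and none passed the test, nor had any an unadjusted p under 0.05. Under 75th percentile scaling the members' median moved to -0.22, and that of all genes to -0.05.

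**Figure D3:**
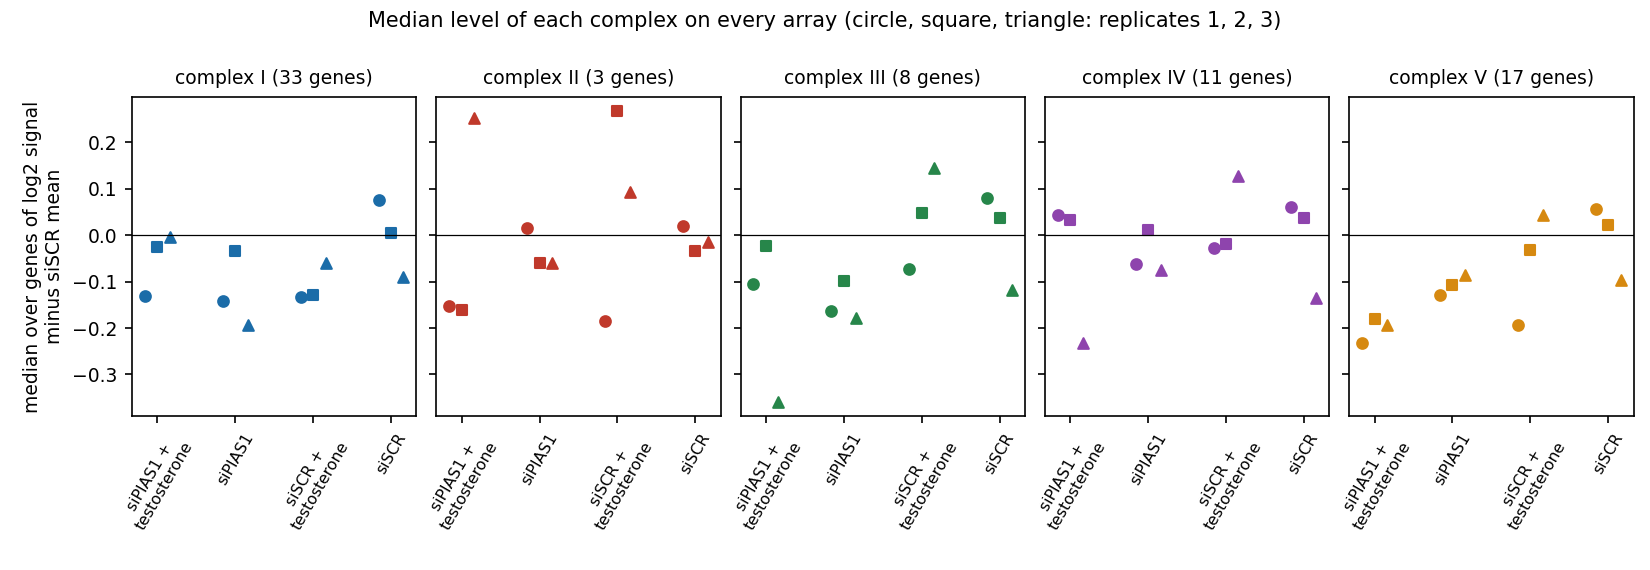
Median over the subunits of each complex of the log2 signal minus the siSCR mean, on every array; circles, squares and triangles are replicates 1, 2 and 3, and the line marks 0. The 3 arrays of siPIAS1 cells with testosterone lie below the 3 of siPIAS1 cells without it for complex V, and for complex IV the third array of siPIAS1 cells with testosterone is the lowest of the 12.

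The knockdown was then compared with testosterone present. In siPIAS1 cells with testosterone 7 of 85 were higher and 16 lower than in siSCR cells with testosterone (27.1%, beside 33.5% of all genes, 16.3% higher and 17.2% lower), with a median of -0.09, against -0.001 over all genes. This comparison shares its siPIAS1 arrays with testosterone, the deviating one among them, with the previous testosterone comparison, and its siSCR arrays with the first, so the lists are not independent of one another. Without the deviating array 7 were higher and 12 lower, and 16 of the 23 calls were kept.

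Complex I subunits went both ways. NDUFB11 had 12.79, 12.82 and 13.22 in siPIAS1 cells and 12.50, 12.34 and 12.23 in siSCR cells, both with testosterone and without overlap (0.58 ± 0.13, adjusted p = 0.00437). NDUFS7 had 11.28, 11.10 and 11.43 in siPIAS1 cells and 10.97, 10.57 and 10.58 in siSCR cells (0.56 ± 0.14), and all its siPIAS1 values lay higher. NDUFS8 had 14.61, 14.44 and 14.35 in siPIAS1 cells and 14.32, 14.05 and 13.98 in siSCR cells (0.35 ± 0.12, adjusted p = 0.0359); under 75th percentile scaling its difference was 0.08 and not called (adjusted p = 0.713). NDUFA11, of the membrane arm, was 1.52-fold higher, with its replicate 3 at 11.92 against 11.03 and 11.04 on the others; the difference was 0.31 without it and still passed. NDUFS5 fell to 11.83, 12.03 and 11.78 in siPIAS1 cells, against 12.12, 12.55 and 12.54 in siSCR cells (-0.52 ± 0.13, adjusted p = 0.00815), and NDUFB6 was 1.3-fold lower, with a log2 difference of -0.23 and no call without the deviating array.

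In complex III 4 of 8 subunits were lower and none higher, namely UQCRB (-0.63 ± 0.21), UQCRHL (-0.52 ± 0.16), UQCRH (-0.47 ± 0.14) and UQCRQ (-0.39 ± 0.12). UQCRB and UQCRQ are small subunits of the complex. UQCRB shows how much 1 array can weigh: it had 10.96, 11.04 and 10.12 in siPIAS1 cells and 11.03, 11.45 and 11.54 in siSCR cells, with overlap, and its difference was -0.34 and not called without the third array. Without it UQCRQ was at -0.28 (call lost) and UQCRHL at -0.28 (call kept). All 4 calls were lost without replicate 3 of siSCR cells with testosterone, and also in a fit of only the groups compared. UQCRH and UQCRHL are near-identical copies whose signals cannot be assigned with certainty. Of complex II, SDHD fell to 9.85, 10.03 and 9.64, against 10.04, 10.54 and 10.35 in siSCR cells (-0.47 ± 0.13, adjusted p = 0.0135), a call that was lost without replicate 2 of siSCR cells with testosterone (adjusted p = 0.0723). Of complex IV, COX7A2L, known as a factor of respiratory supercomplexes, and COX7C, a small subunit, were 1.32-fold and 1.24-fold lower. Of complex V, ATP5F1C, ATP5PO and ATP5F1E were lower by 1.44-, 1.34- and 1.28-fold. Without the third array ATP5F1C was at -0.25 and ATP5F1E at -0.22 on the log2 scale, and both lost their calls. ATP5PO had 12.99, 13.02 and 12.69 in siPIAS1 cells and 13.16, 13.34 and 13.47 in siSCR cells, without overlap. The c-ring genes ATP5MC1 (-0.08 ± 0.10), ATP5MC2 (-0.03 ± 0.17) and ATP5MC3 (-0.32 ± 0.12) did not pass in the main fit. ATP5MC3 did so without the third array, without replicate 1 of siSCR cells with testosterone and without replicate 3 of siSCR cells without it. It also passed with array weights and among genes detected on all 12 arrays. ATP5MC2 read 13.52 on the third array of siPIAS1 cells, against 12.80 and 12.87 on the other replicates, and passed with array weights.

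Among assembly and regulatory genes 3 were called higher and 4 lower. NDUFAF2 again stood low in siPIAS1 cells, with 9.38, 9.43 and 8.93 against 9.85, 9.75 and 10.00 in siSCR cells (-0.62 ± 0.13, adjusted p = 0.0034). NDUFAF4 had 8.42, 8.29 and 8.43 in siPIAS1 cells and 8.69, 9.10 and 9.01 in siSCR cells (-0.55 ± 0.11, adjusted p = 0.00236), and SDHAF3 had 8.73, 8.89 and 8.80 against 9.21, 9.40 and 9.36 (-0.51 ± 0.11, adjusted p = 0.00369). None of these 3 pairs of groups overlapped. NDUFAF1 was 1.25-fold lower, and SDHAF1 and SDHAF2 were 1.36-fold and 1.3-fold higher; NDUFAF1 and SDHAF1 lost their calls without the deviating array. ATP5IF1, the inhibitor of reverse ATP synthase action, was 0.47 ± 0.13 by its brightest probe and -0.50 by its other detected probe, so no direction is given for it. Only NDUFAF2, NDUFAF4, NDUFB11, NDUFS5, NDUFS7, SDHAF2 and SDHAF3 kept their call without each single array. Without replicate 2 or replicate 3 of siSCR cells with testosterone 9 members were called, 14 fewer, and without replicate 1 of that group 30 were.

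**Figure D4:**
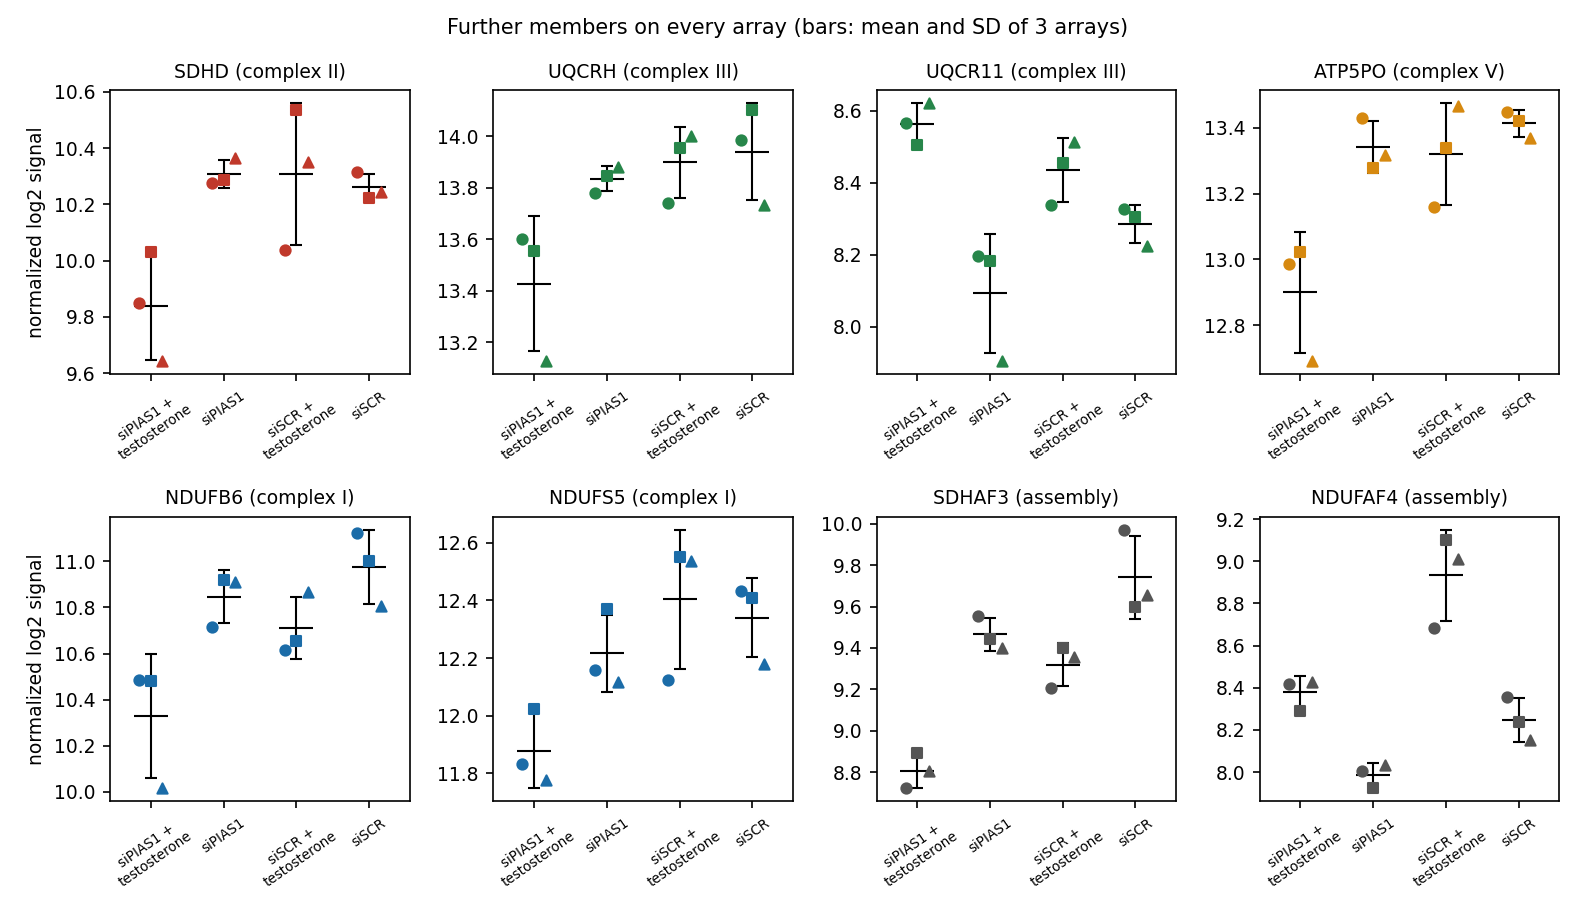
Normalized log2 signal on every array for 8 members, by group; circles, squares and triangles are replicates 1, 2 and 3, and bars are the mean and SD of 3 arrays. In SDHD, ATP5PO and SDHAF3 the siPIAS1 cells with testosterone lie below all other groups, and in NDUFAF4 the siSCR cells with testosterone lie above all others.

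The last comparison asked whether the testosterone response itself differed between siPIAS1 and siSCR cells (interaction of siRNA and testosterone). It did so for 4 of 85 members (4.71%, beside 9.94% of all genes, 4.88% higher and 5.06% lower), each with a higher response after siPIAS1, and for 16 at an unadjusted p under 0.05. The NDUFS7 response was 0.57 after siPIAS1 and -0.40 after siSCR, a difference of 0.97 ± 0.19 log2 units (adjusted p = 0.00612). Its levels in siPIAS1 cells with testosterone and in siSCR cells without it lay above all those of the other groups. ATP5F1D responded by 0.18 after siPIAS1 and -0.58 after siSCR (0.77 ± 0.17, adjusted p = 0.0138), and here the 3 siSCR arrays without testosterone (13.04, 12.90 and 13.22) were matched by only 1 of the other 9, the third of siPIAS1 cells with testosterone. The other members called were NDUFB11 (0.68 ± 0.19) and NDUFV3 (0.86 ± 0.24). NDUFS7 and ATP5F1D kept their calls in every alternative, while NDUFB11 and NDUFV3 lost theirs without any 1 of the siSCR arrays without testosterone, without replicate 2 or 3 of siSCR cells with testosterone, or without replicate 1 or 3 of siPIAS1 cells without it (adjusted p up to 0.0964 for NDUFB11 and 0.0987 for NDUFV3; 2 members called each time). NDUFV3 was also lost without replicate 2 of siPIAS1 cells without testosterone, and its difference was 0.27 and not called in the authors' deposited log2 values (adjusted p = 0.0752). Both were lost with no detection filter, and NDUFB11 with the replicate block (adjusted p = 0.0549). Without replicate 1 of siSCR cells with testosterone 8 members were called, and 7 without replicate 2 of siPIAS1 cells with testosterone. No member had a lower response that passed the test in the main fit. SDHD, at -0.52 ± 0.18, had the lowest (adjusted p = 0.088). It was called without replicate 1 of siSCR cells with testosterone, without replicate 2 of siPIAS1 cells with testosterone and with array weights. NDUFS5 was called without the first of these arrays, COX7A2L without the second, and both with array weights. Members called in 1 testosterone comparison and not in the other, such as NDUFV1 (0.37 ± 0.15, adjusted p = 0.135), were not shown to respond differently. NDUFS8 (0.52 ± 0.17, adjusted p = 0.062) did not pass with all 12 arrays and did so without replicate 3 of siPIAS1 cells with testosterone (0.58 ± 0.16, adjusted p = 0.0302), without background correction, with an offset of 50, in the authors' deposited values, with array weights and without replicate 1 of siSCR cells with testosterone.

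**Figure D5:**
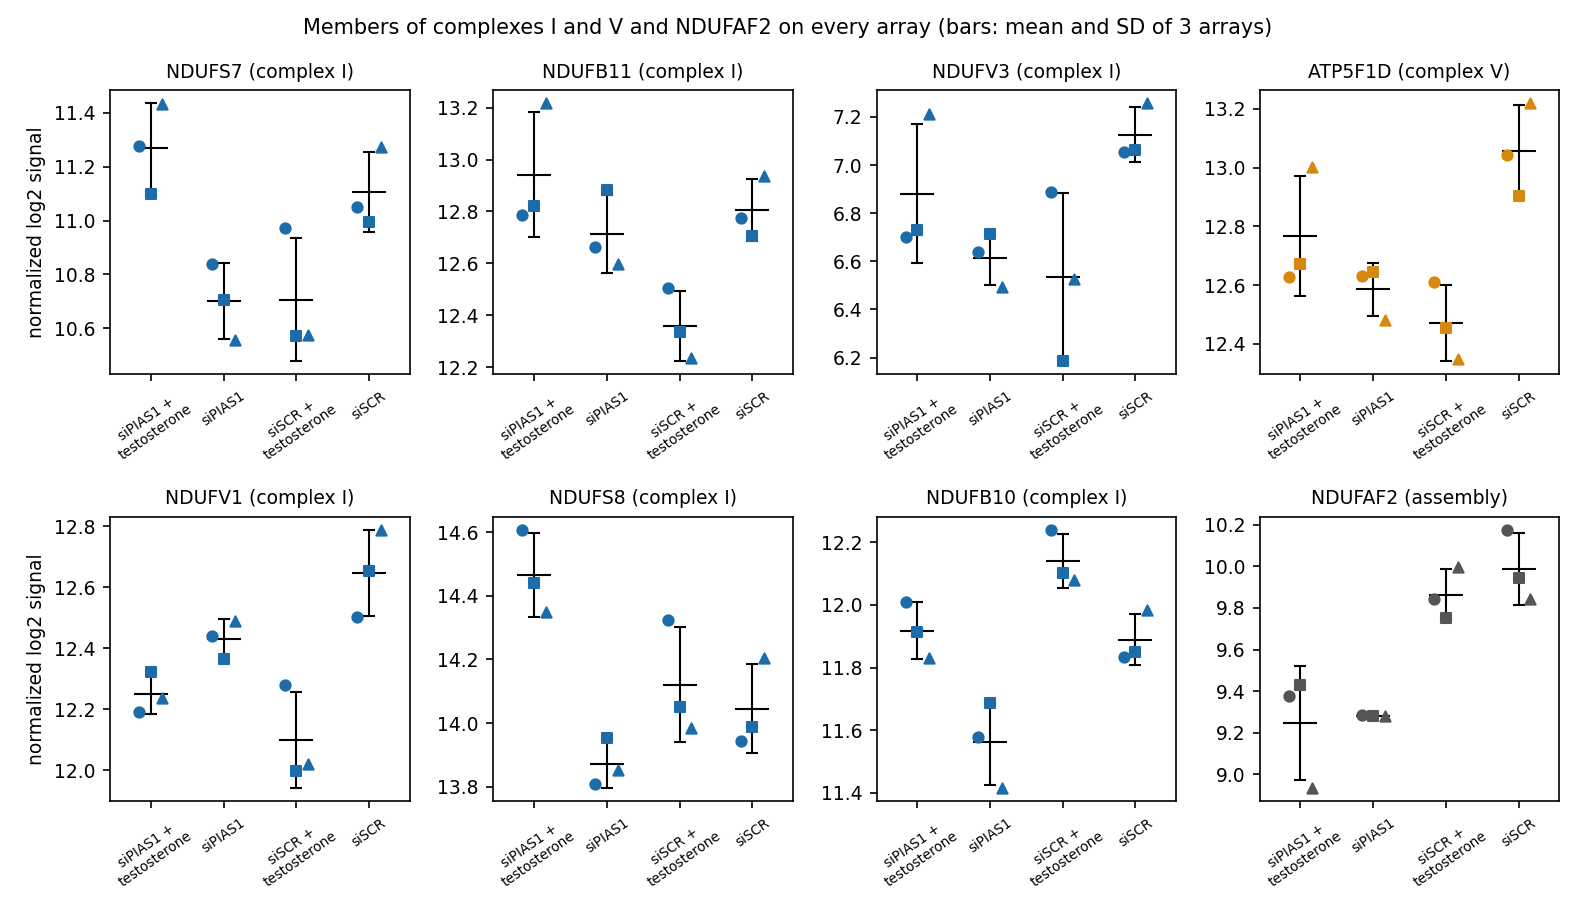
Normalized log2 signal on every array for 8 members, by group, with symbols and bars as in the plot of SDHD and ATP5PO. NDUFS7 is high in siPIAS1 cells with testosterone and in siSCR cells without it, ATP5F1D is highest in siSCR cells without testosterone, and NDUFAF2 is low in both siPIAS1 groups.

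Of 15 listed regulators of mitochondrial gene expression, all with a probe, 12 were measured. PPARGC1A, ESRRG and NRF1 did not pass the detection filter. With testosterone 6 of the 12 (50%) were called after siSCR and 7 (58.3%) after siPIAS1, near the 44.3% and 55.1% of all genes. Testosterone after siSCR raised 3, namely the nuclear receptor ESRRA (0.61 ± 0.11), the GABP subunit GABPB1 (0.75 ± 0.12) and the coactivator PPARGC1B (0.41 ± 0.12). It lowered 3: MYC (-1.32 ± 0.12), the mitochondrial transcription factor TFAM (-0.37 ± 0.10) and TFB1M (-0.32 ± 0.11). After siPIAS1 testosterone raised 4 and lowered 3, with MYC at -2.87 ± 0.12. Knockdown of PIAS1 raised none and lowered 5 without testosterone (PPARGC1B -0.63 ± 0.12, MYC -0.50 ± 0.12 and PPRC1 -0.44 ± 0.09 first) and 9 with it (MYC -2.05 ± 0.12, TFB2M -0.90 ± 0.16 and the mitochondrial RNA polymerase POLRMT -0.55 ± 0.11 first). Those are 41.7% and 75% of the 12, beside 13.3% and 33.5% of all genes. TFAM had 10.03, 10.19 and 10.12 in siPIAS1 cells with testosterone, 10.51, 10.48 and 10.65 in siPIAS1 cells without, 10.38, 10.66 and 10.54 in siSCR cells with testosterone and 10.89, 10.88 and 10.90 in siSCR cells without. Its siSCR values without testosterone lay above all others. The median of the 12 was -0.41 for siPIAS1 with testosterone and -0.34 without, beside -0.09 and -0.12 for the 85 members. The response of MYC to testosterone was lower after siPIAS1 by 1.55 ± 0.17 (log2 ± SE, adjusted p = 8.39e-05) and that of TFB1M by 0.54 ± 0.15.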

How the data were processed

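The 12 samples were single-colour Illumina bead arrays. The deposited table holds, per the file headers, for every array a bead-summarised intensity of each probe with its detection p-value; the authors' deposited log2 values served as an alternative. The submitters' processing notes name lumi without stating its role. Intensities were background-corrected with negative-control statistics inferred from the detection p-values, given an offset of 16, quantile-normalized and log2-transformed (neqc, limma 3.58.1, R 4.3.3). Probes with detection p under 0.01 on at least 3 arrays were kept, and the brightest probe stood for a gene. The 4 groups were fitted together in limma over 10710 genes, with Benjamini-Hochberg adjustment and a threshold of 0.05; the call procedure was tested on simulated data. Members and lists were chosen with earlier results of these data known. The rule for named genes took PIAS1, up to 4 called members per class and comparison with the largest difference, the isoform sets, complex II, members whose probes disagree and those with the smallest differences, and up to 3 called genes per context list; further called or uncalled members were named after their values were seen. The number of arrays limits the precision. Probes with no listed gene symbol (17202 of 47323) were not used. The smallest two-sided exact permutation p for 3 against 3 is 0.1. Alternatives were other backgrounds, scalings, filters, probe rules, array weights, fits of only the groups compared, a replicate block and each array left out. Some genes are not reported here.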

Additional observations from a re-analysis of the deposited data

Results flagged for a closer look

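The testosterone response differed between siPIAS1 and siSCR cells for 4 members by the interaction test (limma, adjusted over all genes). That is 4.71% of the members, beside 9.94% of all genes. The difference, response after siPIAS1 minus response after siSCR, was 0.968 ± 0.191 for NDUFS7 (SE; adjusted p = 0.00612) and 0.765 ± 0.175 for ATP5F1D (adjusted p = 0.0138). It was 0.859 ± 0.24 for NDUFV3 (adjusted p = 0.0376) and 0.676 ± 0.186 for NDUFB11 (adjusted p = 0.035). NDUFS7 and ATP5F1D kept their calls in every alternative. NDUFB11 lost its call in 9 of 22 alternatives and NDUFV3 in 10 of 21.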

How the results depend on the processing

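Counts of called members changed with the error model and the scaling. The share of all genes called is not given beside the counts here or with single arrays left out. These counts therefore do not tell a change in the members from a change in the calls of all genes. For testosterone after siSCR, members called higher numbered 6 without background correction, 5 with an offset of 50, 7 with 75th percentile scaling, 8 from the authors' deposited log2 values, 15 with array weights and 6 with only the groups compared; members called lower numbered 10 from the authors' deposited values, 15 with weights and 11 with only the groups compared, and the median was 0.038 under 75th percentile scaling. For testosterone after siPIAS1, 1 was lower under 75th percentile scaling, and the median was 0.116 there and 0.068 with weights. For siPIAS1 without testosterone, 1 was higher with weights, and 5 were lower with 75th percentile scaling, 6 from the authors' values, 11 with weights and 7 with only the groups compared, and the median was -0.216 under 75th percentile scaling. For siPIAS1 with testosterone, 11 were higher from the authors' values and 3 with only the groups compared, 26 were lower with weights and 4 with only the groups compared, and the median was -0.2 under 75th percentile scaling. For the difference between the testosterone responses, 11 were higher and 5 lower with weights. The weights gave replicate 3 of siPIAS1 cells with testosterone 0.118 and replicate 1 of siSCR cells with testosterone 0.413. The cause of the shifts was not tested.

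With single arrays left out, testosterone after siSCR gave 1 to 9 higher, 4 to 12 lower and a median of -0.092 to -0.002. Testosterone after siPIAS1 gave 9 to 15 higher, 8 to 12 lower and a median of -0.007 to 0.073. PIAS1 knockdown without testosterone gave 0 higher, 1 to 6 lower and a median of -0.138 to -0.067, and with testosterone 3 to 9 higher, 5 to 21 lower and a median of -0.131 to -0.037. The difference between the responses gave 2 to 6 higher, 0 to 2 lower and a median of -0.012 to 0.09. ATP5IF1 turned its sign for siPIAS1 with testosterone in the mean of its probes (-0.017, adjusted p = 0.897). Same-numbered arrays did not deviate together (18 correlations from -0.26 to 0.195, 3 over 0.1). With a replicate block, the counts higher and lower were 3 and 6, 11 and 11, 0 and 2, 6 and 11, and 3 and 0, in the order of the comparisons above. A slide block was not run, since the files name no slide.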

Other observations

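Of 14 measured genes of the tricarboxylic acid cycle and pyruvate dehydrogenase, testosterone raised 4 and lowered 3 after siSCR and raised 4 and lowered 2 after siPIAS1 (50% and 42.9%, beside 44.3% and 55.1% of all genes). IDH3A, a subunit of NAD-dependent isocitrate dehydrogenase, was higher by 1.16 ± 0.15 (log2 ± SE) after siPIAS1 and 1.01 ± 0.15 after siSCR, and its partner IDH3G by 0.98 ± 0.22 and 0.71 ± 0.22. Without replicate 3 of siPIAS1 cells with testosterone, an alternative chosen after seeing the data, IDH3G was higher by 0.61 after siPIAS1. After knockdown of PIAS1 with testosterone present, against siSCR with testosterone, DLST rose by 0.69 ± 0.21, while DLAT (-0.51 ± 0.12) and MDH2 (-0.47 ± 0.11) were lower (limma, 28.6% of the 14 called, beside 33.5% of all genes). Without the same array DLST was higher by 0.35 and kept its call.

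Of 41 other assembly factors, testosterone raised 4 and lowered 14 after siSCR, with CMC2, a complex IV factor, at 1.02 ± 0.09 and ATPAF1, which assembles the F1 part of ATP synthase, at -0.88 ± 0.11. After siPIAS1 it raised 9 and lowered 11 (43.9% called after siSCR and 48.8% after siPIAS1, beside 44.3% and 55.1% of all genes), with CMC2 at 0.98 ± 0.09 and ATPAF1 at -0.81 ± 0.11. The response of ATPAF2 was higher after siPIAS1 by 0.86 ± 0.22 and that of ECSIT by 0.68 ± 0.18.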
